A study of Homo sapiens with 6 samples.

Results

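The microRNAs linked to the transcription factor NF-κB were examined here through miR-146a, miR-146b and miR-155, both arms of each hairpin. These are the 6 entries hsa-miR-146a-5p, hsa-miR-146a-3p, hsa-miR-146b-5p, hsa-miR-146b-3p, hsa-miR-155-5p and hsa-miR-155-3p among the 2596 microRNA entries of the count files. They were taken by name, with no threshold on their counts, and all 6 were found. Small RNA was sequenced from K562 cells, an erythroleukemia line, that had been transduced with the lentiviral vector SIEW. The control cells carried the empty vector with GFP alone, and the RUNX1 cells carried the same vector with human RUNX1 and GFP, so that both groups expressed GFP and differed in the RUNX1 insert. Each group had 3 samples from separate transductions, and RNA was taken after 10 days. RUNX1 is a transcription factor of hematopoiesis, and the comparison asks which small RNAs are altered upon its over-expression. All samples come from a single cell line with an ectopic vector, and the small RNA libraries do not measure the RUNX1 transcript.

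NF-κB is activated downstream of Toll-like and interleukin-1 receptors in myeloid and lymphoid cells. It induces the transcripts that carry miR-146a and miR-155. miR-146a and miR-146b are paralogs from separate chromosomes, and their 5p arms bind the mRNAs of the adaptors TRAF6 and IRAK1, which act in the same receptor pathway, so miR-146 is known as a negative feedback regulator of it. miR-155 targets INPP5D (SHIP1) and SOCS1 and is best known from activated lymphocytes, macrophages and leukemia.

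The mature sequences are shown because the 5p arms of miR-146a and miR-146b must be told apart by few bases. They are given 5′ to 3′ from RefSeq (GRCh38.p14) with the seed, bases 2 to 8, in capitals.
hsa-miR-146a-5p: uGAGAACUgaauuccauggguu
hsa-miR-146b-5p: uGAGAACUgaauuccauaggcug
hsa-miR-146a-3p: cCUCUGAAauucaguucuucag
hsa-miR-146b-3p: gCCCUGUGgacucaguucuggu
hsa-miR-155-5p: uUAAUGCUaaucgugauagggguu
hsa-miR-155-3p: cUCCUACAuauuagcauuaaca

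The 5p arms of miR-146a and miR-146b share the seed GAGAACU. Over the 22 bases of miR-146a-5p, 20 are identical in miR-146b-5p. The differences, counted from 1 at the 5′ end with the miR-146a base first, are G18A and U21C, and miR-146b-5p has 1 further base at its 3′ end. They are in capitals below.
hsa-miR-146a-5p: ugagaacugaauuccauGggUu
hsa-miR-146b-5p: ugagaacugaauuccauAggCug
A read that ends before base 18 is therefore the same for both paralogs. One that reaches base 18 but ends before base 21 can differ at base 18 only. How such reads were assigned is not given in the sources used here. The 3p arms have different seeds and share 6 of 22 positions. Outside this pair, the seed GAGAACU was found in hsa-miR-7153-5p, which had 0 counts in all 6 samples. No other matched entry shared a seed with the 3p arms or with either arm of miR-155. Each of the 6 mature sequences is made by 1 gene in RefSeq.

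miR-146a-5p rose from a low level to a moderate one upon RUNX1 over-expression, while miR-146b-5p, already one of the most abundant microRNAs of K562 cells, rose 1.90-fold. The group means of both miR-146b arms rose to a similar degree, though the order of samples within a group differed between the arms. miR-155-5p was close to the limit of detection in both groups, and the 3p arms of miR-146a and miR-155 were nearly or wholly without counts. Of the 6 members, 4 passed the filter on low counts (edgeR's filterByExpr, minimum count 10 and minimum total 15), and these 4 were called up-regulated. The thresholds for calling a small RNA altered were a P-value of 0.05 and a size of 0.5 for the log2 fold change. That call was common. It was made for 57.6% of the 947 tested small RNAs and for 56% of the 598 tested microRNAs. Up-regulated microRNAs were 200, or 33.4% of those tested, and 135 were down-regulated. In 36.3% of the tested microRNAs, all 3 RUNX1 samples lay above all 3 control samples. The 4 tested members were among these.

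The depth differed between samples, and the scaling of the libraries sets the size of the smaller changes. Total counts ranged from 1618248 to 6193319 in control samples and from 7918551 to 15245007 in RUNX1 samples. A floor of 3 counts lay at 0.000185% of the total in the smallest library and at 1.97e-05% in the largest one. Within a group, replicates differed by more than sampling noise. Chi-square per degree of freedom was 11.2 to 25.9 between control samples and 67.4 between RUNX1 replicates 1 and 2. RUNX1 replicate 3 lay apart from the others of its group, with 545 against replicate 1 and 372 against replicate 2. For the same relative spread, chi-square grows with depth. The RUNX1 libraries were deeper, so these values do not compare the spread of the 2 groups. Levels are in CPM, that is, relative to a library size scaled by edgeR's TMM factors, which were 1.23 to 1.31 for control and 0.735 to 0.866 for RUNX1 libraries. TMM centres the comparison on small RNAs taken as unchanged. The median tested microRNA had a log2 fold change of 0.106 under TMM and of -0.591 by library size alone, and the share of altered microRNAs that were up-regulated was 59.7% under TMM and 23.8% by library size. The hsa-miR-10a-5p entry alone held 94004 to 434956 counts in the control libraries and 1943447 to 4359095 in those with RUNX1.

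hsa-miR-146a-5p, the arm of MIR146A with counts, was found 19, 87 and 86 times in the control samples (replicates 1, 2 and 3, in this order throughout) and 2433, 1068 and 1392 times in the RUNX1 samples. Its scaled level was 9.08, 10.8 and 11.3 CPM in the controls against 211, 171 and 203 CPM with RUNX1. The groups did not overlap, and the lowest RUNX1 sample was far above the highest control sample. The mean rose from 10.4 ± 1.17 to 195 ± 21.3 CPM (SD, n = 3 each), an 18.3-fold increase. The log2 fold change was 4.20 (SE 0.167, 95% interval 3.82 to 4.57, edgeR quasi-likelihood P-value 1.13e-09, Benjamini-Hochberg adjusted P-value 3.58e-07). It was the 11th largest log2 fold change of the 598 tested microRNAs. In abundance, the entry ranked between 291 and 317 among the microRNAs of the control samples and between 117 and 125 in the RUNX1 samples.

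miR-146a-5p was called up-regulated under each scaling, and its log2 fold change was 3.51 by library size alone and 4.27 with RLE factors. Above the median tested microRNA it was 4.09 under TMM, a difference that a change of scaling leaves nearly the same by construction. As a share of all counts, without any scaling factor, it went from 0.00133% to 0.0154%. The 3p arm, hsa-miR-146a-3p, had 0 counts in each control sample and 1, 1 and 0 in the RUNX1 samples, and no fold change is given for it.

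hsa-miR-146b-5p had 88327, 317362 and 297256 counts in the control samples and 959174, 471566 and 488132 in the RUNX1 samples. Scaled, the control samples held 42223, 39367 and 39128 CPM and the RUNX1 samples 83172, 75413 and 71216 CPM. All RUNX1 samples were above all control samples, and the spread within each group was small beside the gap between them. The mean went from 40239 ± 1722 to 76600 ± 6066 CPM (SD, n = 3 each). The log2 fold change was 0.93 (SE 0.113, 95% interval 0.67 to 1.19, edgeR P-value 1.80e-05, adjusted P-value 0.000120). The entry ranked 4 to 6 in abundance among the microRNAs of the control samples and 3 to 4 in the RUNX1 samples. Its share of all counts was 5.14% ± 0.330 in the control group and 6.0% ± 0.400 in the RUNX1 group.

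hsa-miR-146b-3p, the minor arm of the same hairpin, had 422, 1807 and 1672 counts in the control samples and 4877, 2593 and 3367 in the RUNX1 samples. The scaled levels were 202, 224 and 220.1 CPM in the controls against 423, 415 and 491 CPM with RUNX1. The groups did not overlap. Its mean rose from 215 ± 11.9 to 443 ± 42.0 CPM (SD, n = 3 each), with a log2 fold change of 1.04 (SE 0.130, 95% interval 0.74 to 1.33, edgeR P-value 2.23e-05, adjusted P-value 0.000141). A predicted microRNA entry, named for 22 bases on the plus strand of chromosome 10, held the same count in each of the 6 samples, so these reads were entered under both names. The calls of both miR-146b arms rest on the scaling. By library size alone the log2 fold change was 0.224 for miR-146b-5p and 0.348 for miR-146b-3p, and neither was called. Under TMM they lay 0.823 and 0.933 above the median tested microRNA.

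**Figure D1:**
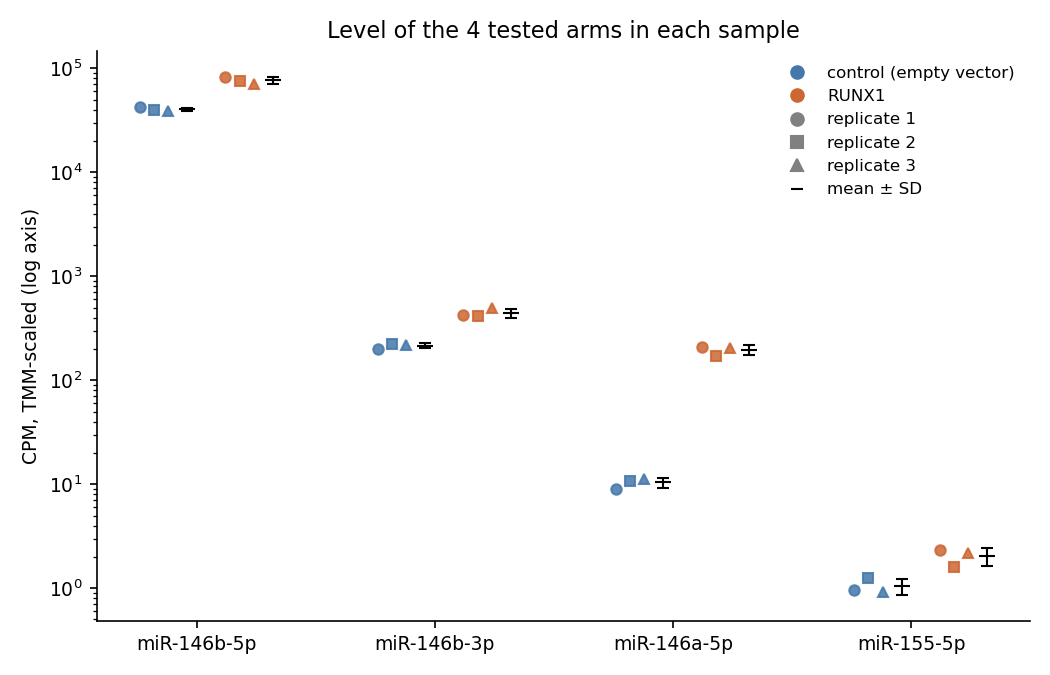
Level of the 4 arms that passed the filter, in CPM scaled by TMM on a log axis, with 1 point for each sample and the mean ± SD of the 3 samples of each group. The control and RUNX1 points of miR-146a-5p lie apart at 9.08 to 11.3 and 171 to 211 CPM, whereas miR-155-5p lies between 0.921 and 2.34 CPM in all samples.

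The paralogs can be compared within a library, where the library size and its scaling cancel. For each 1000 counts of miR-146b-5p, there were 0.215, 0.274 and 0.289 counts of miR-146a-5p in the control samples and 2.54, 2.26 and 2.85 in the RUNX1 samples. Every RUNX1 sample was above every control sample. The mean ratio was 0.260 ± 0.0392 in the controls and 2.55 ± 0.294 with RUNX1 (SD, n = 3 each). On the log2 scale the ratio was -11.9 ± 0.228 and -8.62 ± 0.166, a difference of 3.30 or 9.87-fold (exact permutation test, two-sided, p = 0.1, the lowest value possible with 3 against 3 samples). This ratio is the same under every scaling of the libraries. Whether reads of miR-146b-5p entered under miR-146a-5p make up part of its low control counts was not tested. Any such part would lower the fold changes given here.

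In absolute level the order of the paralogs was the same in both groups. The mean increase was 185 CPM for miR-146a-5p and 36361 CPM for miR-146b-5p. Summed, the 5p arms with the seed GAGAACU went from 40250 ± 1721 to 76795 ± 6073 CPM (SD, n = 3 each), a log2 difference of 0.93 (exact permutation test, two-sided, p = 0.1, again the lowest possible). The size of this difference rests on the scaling, and it was 0.596 by library size without miR-10a-5p and 0.227 by library size alone. miR-146a-5p made up 0.0259% ± 0.00392 of this sum in control and 0.254% ± 0.0292 in RUNX1 samples, with ranges of 0.0215% to 0.0289% and 0.226% to 0.284%. The 5p arms are of nearly equal length, 22 and 23 bases. Efficiency of ligation was not measured for either.

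The hairpins are shown to place the arms, which are in capitals.
MIR146A: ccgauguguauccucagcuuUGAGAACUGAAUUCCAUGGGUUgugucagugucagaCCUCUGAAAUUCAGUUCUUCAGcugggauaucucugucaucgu
MIR146B: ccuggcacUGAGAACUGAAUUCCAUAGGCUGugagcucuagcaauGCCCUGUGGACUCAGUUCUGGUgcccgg
Both hairpins gave almost all of their counts from the 5p arm. For miR-146b, the 5p count divided by the 3p count was 209, 176 and 178 in the control samples and 197, 182 and 145 in the RUNX1 samples. These ranges overlapped. The log2 ratio was 7.55 ± 0.141 and 7.44 ± 0.229 (SD, n = 3 each), a difference of -0.11 (exact permutation test, two-sided, p = 0.6), and no change in arm use was shown. The 3p arm held 0.476%, 0.566% and 0.559% of the hairpin's counts in the controls against 0.506%, 0.547% and 0.685% with RUNX1.

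For miR-146a, the 3p arm held 1 of 2434 counts (0.0411%, 95% exact Clopper-Pearson interval 0.00104% to 0.229%) in RUNX1 replicate 1 and 1 of 1069 (0.0935%, 0.00237% to 0.520%) in RUNX1 replicate 2. It held 0 of 1392 in RUNX1 replicate 3, where the exact upper limit was 0.265% and a floor of 3 counts lay at 0.216%. Over the 3 RUNX1 samples this was 2 of 4895 counts, or 0.0409% with an interval of 0.00495% to 0.148%. The pooled share of the miR-146b 3p arm in the same samples was 0.562%, above this interval. In the control samples, 0 of 192 counts were of the miR-146a 3p arm. The exact upper limit was 1.90% and the floor of 3 counts 1.56%, so a share like that of miR-146b was not detectable there. The intervals and floors cover counting error only.

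**Figure D2:**
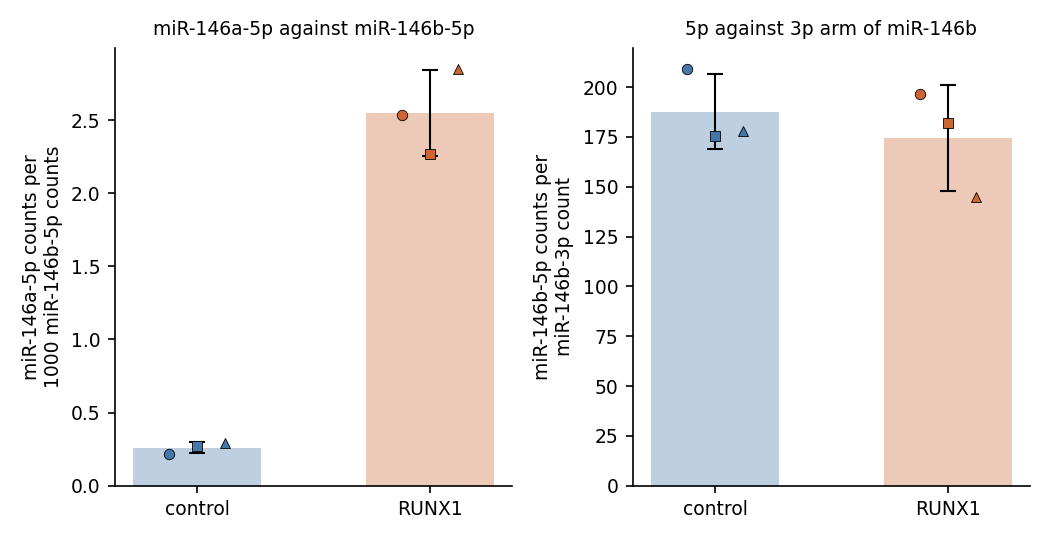
Within-library ratios by group, on linear axes that start at 0, with 1 point for each sample and the mean ± SD of 3 samples. The count of miR-146a-5p per 1000 counts of miR-146b-5p is 0.215 to 0.289 in control and 2.26 to 2.85 in RUNX1 samples, while the ratio of the miR-146b arms overlaps between the groups.

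hsa-miR-155-5p was counted 2, 10 and 7 times in the control samples and 27, 10 and 15 times in the RUNX1 samples. The scaled level was 0.956, 1.24 and 0.921 CPM in the controls against 2.34, 1.60 and 2.19 CPM with RUNX1. The mean was 1.04 ± 0.175 and 2.04 ± 0.392 CPM (SD, n = 3 each). The log2 fold change of 0.95 (SE 0.336, 95% interval 0.19 to 1.71) passed the thresholds in edgeR (P-value 0.0193, adjusted P-value 0.0350), and the scaled groups did not overlap. The call rests on 19 counts in all control samples and 52 in all RUNX1 samples. It was lost in DESeq2 (log2 fold change 1.04, P-value 0.0850), under the other scalings except RLE, without control replicate 3 (edgeR P-value 0.0901) and without RUNX1 replicate 1 (edgeR P-value 0.0597).

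In CPM of the unscaled total, miR-155-5p stood at 1.24, 1.63 and 1.13 in the controls against 1.77, 1.18 and 1.89 with RUNX1, and these values overlapped. The entry ranked 581 to 643 among the microRNAs of the control samples and 493 to 536 in the RUNX1 samples. hsa-miR-155-3p had 0 counts in all 6 samples. The order of levels in each group was therefore miR-146b-5p, then miR-146b-3p, miR-146a-5p and miR-155-5p. In RUNX1 samples miR-146a-5p came close to miR-146b-3p without overlap, at 171 to 211 against 415 to 491 CPM, whereas in control samples they stood at 9.08 to 11.3 and 202 to 224 CPM.

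**Figure D3:**
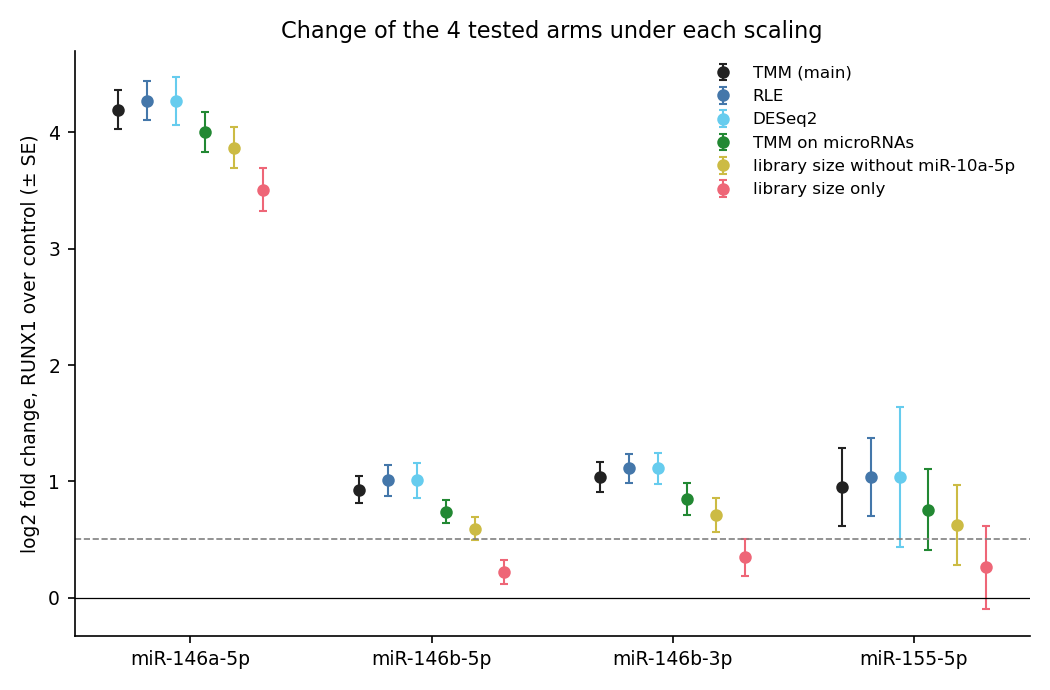
Log2 fold change of RUNX1 over control for the 4 tested arms under each scaling, with the SE of each fit as error bars and a dashed line at 0.5. miR-146a-5p lies at 4.20 under TMM and stays above 3 under each scaling, while the arms of miR-146b and miR-155-5p lie near 1 under TMM and at 0.224 to 0.348 by library size alone.

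Other microRNAs known to be induced by NF-κB or to act on its pathway were counted as a list of 12. Of the 9 that passed the filter, 5 were up-regulated, 0 were down-regulated and 4 were not called. This is 55.6% up-regulated, where 33.4% of all tested microRNAs were. The median log2 fold change of the 9 was 0.91, and that of the tested microRNAs was 0.11. By library size alone, 3 were up-regulated and 3 down-regulated. By library size without miR-10a-5p these counts were 5 and 2, and with TMM on microRNAs 5 and 1. The list was drawn up with earlier results of these data known. Whether the list stands apart from other microRNAs was not tested, and it holds miR-223-3p, which is also a myeloid marker.

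Among those that rose, hsa-miR-10a-5p, which acts on the kinase MAP3K7 (TAK1), had the largest log2 fold change of the list, 2.83 (SE 0.169). hsa-miR-181b-5p, which targets the importin KPNA4, rose by 1.85 (SE 0.193). hsa-miR-301a-3p, which targets the NF-κB repressing factor NKRF, rose by 1.79 (SE 0.157). hsa-miR-15a-5p and hsa-miR-223-3p, which both act on the kinase CHUK (IKKα), had log2 fold changes of 1.08 (SE 0.173) and 0.91 (SE 0.223). These 5 belong to different steps of the pathway, from kinase to nuclear import and repression.

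The 4 that were not called had small values in both directions. hsa-miR-21-5p, which NF-κB and AP-1 induce, had a log2 fold change of 0.31 (SE 0.126). hsa-miR-16-5p had -0.03 (SE 0.268), hsa-miR-125a-5p -0.26 (SE 0.133) and hsa-miR-132-3p -0.46 (SE 0.133). The last had an edgeR adjusted P-value of 0.0142, but its change was smaller than the fold threshold. The 3 that did not pass the filter were hsa-miR-9-5p with 4 counts over all samples, hsa-miR-125b-5p with 3 and hsa-miR-199a-5p with 0.

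The 3 entries without a test, together with miR-16-5p and miR-181b-5p, have mature sequences that RefSeq gives to 2 or 3 genes each. Their summed counts were 0 to 578, whereas the 7 entries of the list with 1 gene had 5588 to 9701490. Over all matched microRNAs, 1000 counts or more were reached by 9.60% of 2104 with 1 gene and by 3.80% of 158 with 2 or more genes. The highest of the latter, hsa-miR-92a-3p, had 982584 counts. The part of reads that match several loci in these values was not tested, and the members of miR-146 and miR-155 have 1 gene each.

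**Figure D4:**
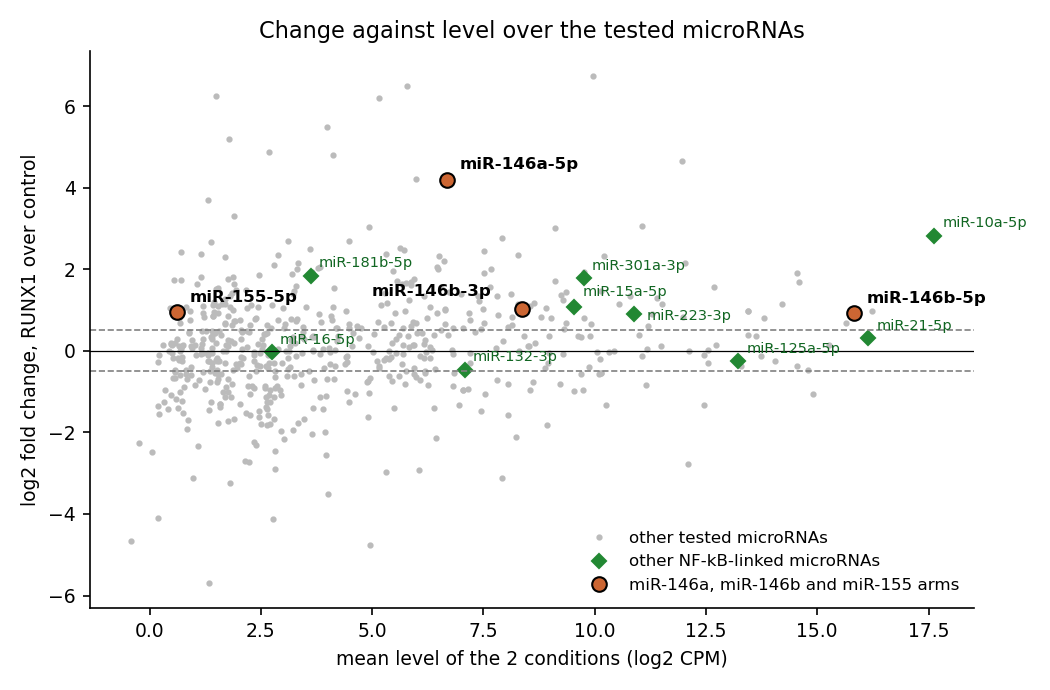
Log2 fold change of RUNX1 over control against the mean level in log2 CPM for the 598 tested microRNAs, with the 4 arms of miR-146a, miR-146b and miR-155 and the 9 tested NF-κB-linked microRNAs marked. miR-146a-5p lies at 4.20, 11th from the top, and the other 3 arms lie close together at 0.93 to 1.04 over levels that differ widely.

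The microRNAs closest in pattern to each arm were found from log2 CPM (0.5 CPM added), centred on the control mean, as the smallest root mean square difference over the 6 samples. Predicted entries were left out, and so were the tested members themselves, so no arm could be listed as nearest to another. For miR-146a-5p these were hsa-miR-221-3p (difference 0.224), hsa-miR-1269a (0.234) and hsa-miR-4532 (0.441), whose own log2 fold changes were 4.22, 4.81 and 4.66. For miR-146b-5p the nearest was hsa-miR-27b-3p at 0.0516, followed by hsa-miR-4761-3p at 0.105 and hsa-miR-30d-5p at 0.115. hsa-miR-27b-3p was also the second nearest to miR-146b-3p at 0.154, after hsa-miR-1908-5p at 0.125 and before hsa-miR-144-3p at 0.159. The nearest to miR-155-5p were hsa-miR-1306-5p at 0.132, hsa-miR-33a-5p at 0.152 and hsa-miR-411-5p at 0.155. Their log2 fold changes were 0.685, 0.843 and 0.67, below the 0.954 of miR-155-5p. The added 0.5 CPM shrinks changes at low levels, such as those of miR-155-5p and hsa-miR-1269a. Centring on the control mean makes the nearest microRNAs ones of like fold change, so the paralogs could not share one. Since the values come from the same 6 libraries, these differences are descriptions.

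The genes lie on 3 chromosomes in GRCh38, all on the plus strand. MIR146A is at chr5:160485352-160485450, in an exon of the long non-coding gene MIR3142HG in GENCODE 29. MIR155 is at chr21:25573980-25574044, in an exon of the long non-coding gene MIR155HG. MIR146B, at chr10:102436512-102436584, lies in no annotated gene, and the nearest is the protein-coding CUEDC2 on the other strand, 3850 bases away. The promoter of MIR3142HG (RefSeq, GRCh38.p14, plus strand, 250 bases before to 50 after the gene start) is shown because its gene carries the member with the largest fold change, and it holds a κB motif, which is in capitals.
MIR3142HG promoter, chr5:160468001-160468300: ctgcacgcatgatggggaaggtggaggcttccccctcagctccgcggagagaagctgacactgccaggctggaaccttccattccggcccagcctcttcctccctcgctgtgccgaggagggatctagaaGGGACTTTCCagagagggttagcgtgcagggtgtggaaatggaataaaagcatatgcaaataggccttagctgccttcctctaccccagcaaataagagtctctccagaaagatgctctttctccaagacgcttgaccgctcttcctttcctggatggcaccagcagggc
The motif lies at 160468131 to 160468140, 120 bases before the gene start, on the plus strand. Both strands were searched for the NF-κB consensus, which 11.3% of 35116 promoter windows of the same length hold, and for the RUNX core TGTGGT, which 13.1% hold. The MIR3142HG window had 0 RUNX core motifs, and the MIR155HG window at chr21:25561895-25562194 had 0 of either motif. The MIR146B promoter was not analysed here. A match is a run of letters and no evidence of binding, and the absence of one covers these windows only.

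MicroRNAs known as markers of cell types were counted beside these results. The summed level of 4 erythroid microRNAs was 4430 to 5060 CPM in control and 2330 to 3700 CPM in RUNX1 samples, with 1 up-regulated and 3 down-regulated. Of 4 myeloid and lymphoid microRNAs, 3 passed the filter and all 3 were up-regulated, and their sum went from 13800 to 15500 CPM in control to 37100 to 54000 CPM in RUNX1 samples. In a list of 5 muscle and stroma microRNAs, 3 passed the filter and were up-regulated, with a sum of 70.8 to 75.3 CPM in control and 1950 to 2160 CPM in RUNX1 samples. Nearly all of this rise was hsa-miR-143-3p, at 17.2 to 20.1 CPM in control and 1870 to 2050 CPM in RUNX1 samples. hsa-miR-206 was at 0 in all samples, and hsa-miR-133a-3p was at 0 in all control samples. Of 6 epithelial microRNAs, 4 were tested and 3 were up-regulated, from sums of 55.8 to 63.6 CPM to sums of 166 to 180 CPM. The largest part of this rise was hsa-miR-205-5p, at 0 to 1.12 CPM in control and 57.9 to 78.4 CPM in RUNX1 samples. The tested entry that was not called, hsa-miR-200b-3p, stood at 17.2 to 17.5 and 10.2 to 16.3 CPM. The liver microRNA hsa-miR-122-5p stood at 0.124 to 1.05 and 0.32 to 1.13 CPM, and the brain microRNA hsa-miR-124-3p at 0. All samples are of the K562 line, so the lists describe microRNA levels in that line. Their relation to the rise of miR-146a and miR-146b was not tested. In bulk samples, fewer cells with a microRNA cannot be told apart from less of it per cell.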

How the data were processed

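Small RNA libraries of 3 control and 3 RUNX1 samples (TruSeq Small RNA kit, 1000 ng total RNA, HiSeq2000) were analysed by the authors on the OASIS platform with standard parameters. The deposited values are whole-number counts of reads per annotated small RNA, without normalization, for 28846 entries in each file. The submitters' processing notes name CASAVA 1.8.2 and hg19. The aligner, and how a read with several matches was treated, are not given in the sources used here. Groups and replicate numbers come from the sample titles. The library names of the control and RUNX1 samples carry different letters, and should these mark preparations, condition and preparation cannot be told apart.

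Counts were filtered with filterByExpr, scaled by TMM and fitted with glmQLFit, with glmQLFTest as the test (edgeR 4.0.16, limma 3.58.1, R 4.3.3) over all 947 entries that passed, with condition as the only term. DESeq2 1.42.0 was run on the same entries. The common biological coefficient of variation was 0.181. The edgeR P-values weigh the difference between the groups against the spread between these samples. The scripts were tested on simulated data, in which entries drawn at random were raised or lowered by a fixed size. That simulation was not set up to test the choice of scaling. Within-library ratios and summed levels were compared by exact permutation tests. The ratios of the miR-146a and miR-155 arms were not tested because their 3p arms had at most 1 count in a sample.

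Named microRNAs were the 6 members, the list of 12, the 3 nearest in pattern to each tested member and seed sharers. Members and lists were chosen with earlier results of these data known. Sequences were matched by name to RefSeq for 2262 of 2576 known microRNA entries, including all 6 members. Alternatives were other scalings, DESeq2, other filters and thresholds, the replicate block and each replicate left out.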

Additional observations from a re-analysis of the deposited data

How the results depend on the processing

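Of 177 alternative values for 13 results, 158 kept the direction and the side of the test's P-value and fold thresholds or, for counts, lay within 1.5 times the reported count, which takes in 226 to 465 altered microRNAs. They include alternatives of the within-library ratios and of the summed 5p arms of miR-146, which were judged on direction alone. The permutation tests of these results could not pass under any alternative. The log2 difference of the summed arms was 0.227 to 1.01 over the scalings. hsa-miR-146a-5p was up-regulated under every alternative tried, with a log2 fold change of 4.15 to 4.34 when 1 replicate was left out. With library size alone, the log2 fold change fell below the threshold for hsa-miR-146b-5p (0.224), hsa-miR-146b-3p (0.348) and hsa-miR-155-5p (0.259), so that 1 member, 3 of the NF-κB-linked list and 91 microRNAs were up-regulated. The shift of all microRNAs under that scaling has the same direction. hsa-miR-155-5p was also not called with TMM on microRNAs (0.758), with library size without miR-10a-5p (0.624) and in DESeq2 (1.04), and ranged from 0.836 to 1.14 with 1 replicate left out. Deviations of same-numbered samples correlated at -0.0834 to 0.0238, so the numbers were not taken as pairs. The replicate block gave miR-155-5p 0.894 (edgeR P-value 0.0706), changed the call of no other member and left 334 microRNAs altered. With a log2 fold change of at least 1, there were 2 members up-regulated, 216 microRNAs altered and 129 up-regulated. With at least 10 counts in every sample, 133 microRNAs were up-regulated, fewer were tested, and miR-155-5p was not among them. With 1 replicate left out, the members called were 3 to 4, and the difference in the log2 ratio of the miR-146b arms was -0.203 to 0.0166, reversed without RUNX1 replicate 3. The causes were not tested. The split of altered microRNAs was 200 up and 135 down under TMM, 162 and 177 with TMM on microRNAs, 141 and 199 by library size without miR-10a-5p, and 91 and 292 by library size. The low counts of miR-155-5p limit its precision.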
